A study of Danio rerio with 6 samples.

Results

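The Id genes id1, id2a, id2b, id3 and id4 and the inhibitory Smads smad6a, smad6b and smad7 are the transcripts most often read as an output of bone morphogenetic protein (BMP) signaling. They were taken by symbol, which gave 8 genes out of 31701 in the table, and all 8 had enough counts to be tested. The question was whether these genes differ between regenerating zebrafish hearts with and without forced expression of tbx20, a T-box transcription factor, and whether id2a differs from id1 and id2b. The tbx20-overexpressing group (3 libraries) carried the driver cmlc2:TetON-3G together with the responder TRE3G:tbx20-E2A-mCherry, so that doxycycline turned on tbx20 in cardiomyocytes, where the cmlc2 promoter is active. The control group (3 libraries) carried the responder alone. Both groups were adult fish of AB background, also had lens fluorescence markers, received doxycycline daily from the day before the ventricular apex was cut off, and gave apical ventricle tissue at 7 days post-amputation (dpa). Each library pooled the tissue of several hearts, 6 in replicate 1 and 8 in replicates 2 and 3 of either group, so variation between single fish is not visible.

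BMP ligands bind paired type I and type II receptors, which phosphorylate Smad1 and Smad5, and these enter the nucleus with Smad4 to switch on target genes. Id genes are among the direct targets. Their proteins have a helix-loop-helix domain but no DNA-binding region, and hold E proteins in pairs that cannot bind DNA, which delays differentiation in many lineages. Smad6 and Smad7 are targets of the pathway that act against it: work in mammalian cells has Smad6 compete for activated Smads and Smad7 block type I receptors of both the BMP and the TGF-beta arms and bring ubiquitin ligases to them. In the zebrafish heart, id genes are used as a readout of BMP activity in the endocardium, the valves and the injured tissue.

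Total counts ranged from 12993988 to 14002211 in the tbx20-overexpressing libraries and from 13218054 to 17754483 in control libraries. Values below are CPM, the count of a gene relative to the library total after scaling by TMM, a normalization that assumes that most genes do not change, or FPKM, the authors' counts scaled by the library total and the exonic length of the gene. The share of counts on 13 mitochondrially encoded genes was 11.1 to 15.0% in tbx20-overexpressing and 16.3 to 20.9% in control libraries. The check of the labels was tbx20 itself, with 133, 19.1 and 37.2 CPM in tbx20-overexpressing replicates 1, 2 and 3, against 41.3, 8.59 and 20.3 CPM in control replicates 1, 2 and 3. It was higher in each tbx20-overexpressing library than in the control library of the same number, but the groups overlapped (log2 fold change 1.43, SE 0.75, unadjusted p = 0.0893 in edgeR's quasi-likelihood test), and without tbx20-overexpressing replicate 1 the log2 fold change was 0.26. With the replicate number as a block it was 1.24 (SE 0.19, adjusted p = 0.0479).

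Of the 8 genes, id2a rose in tbx20-overexpressing hearts and the other 7 did not pass the test. The cutoffs for calls were those of the study's results, while the study itself used DESeq. Here a gene was called if edgeR's unadjusted p was below 0.05 and the log2 fold change differed from 0 by more than 0.5. This called 1 of the 8 genes higher, against 3.27% of the 15686 genes tested, and 0 of the 8 lower, against 5.56%. At a Benjamini-Hochberg adjusted p under 0.05, the rule of the study's methods, edgeR called 0 of the 8 and 0% of all genes, although 1448 genes had an unadjusted p under 0.05, and DESeq2 called 239 genes. With the replicate block, 1 of the 8 genes was called higher beside 6.05% of all genes, and 0 of the 8 had an adjusted p under 0.05 beside 0.536%. The median log2 fold change over the 8 genes was 0.26, with 6 above 0, beside 0.04 over all genes, of which 54.3% were above 0.

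id2a (ENSDARG00000055283), 1 of the 2 zebrafish copies of the gene for Id2, had 35.1, 61.6 and 38.2 CPM in tbx20-overexpressing replicates 1, 2 and 3, against 28.8, 23.4 and 27.8 CPM in control replicates 1, 2 and 3. Each of the 3 tbx20-overexpressing libraries was above all 3 control libraries, and replicate 2 stood well above the other two. The means were 44.9 ± 14.5 CPM in tbx20-overexpressing and 26.7 ± 2.87 CPM in control hearts (SD, n = 3 each), and the log2 fold change was 0.75 (SE 0.25, 95% interval 0.18 to 1.33, edgeR unadjusted p = 0.0163, adjusted p = 0.402). The exact two-sided permutation test of the 6 values gave p = 0.1, the smallest that 3 libraries against 3 allow. Groups without overlap and higher in tbx20-overexpressing hearts were found for 1 of the 8 genes in CPM, beside 6.45% of all genes. The call was lost without tbx20-overexpressing replicate 2, where the log2 fold change was 0.45, and without control replicate 2, where it was 0.66, and it was kept in the other 4 fits with a library left out.

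id2b (ENSDARG00000029544), the other copy, had 57.3, 63.5 and 68.6 CPM in tbx20-overexpressing replicates 1, 2 and 3, against 46.6, 61.7 and 81.2 CPM in control replicates 1, 2 and 3. The control values enclosed the tbx20-overexpressing ones. The means were 63.1 ± 5.63 CPM in tbx20-overexpressing and 63.2 ± 17.3 CPM in control hearts (SD, n = 3 each), and the 95% interval of the log2 fold change ran from -0.52 to 0.52 (edgeR unadjusted p = 0.995). The interval of id2b thus included changes within 0.52 in either direction. The estimate for id2a, 0.75, lay outside it, but the interval of id2a, 0.18 to 1.33, overlapped it. These intervals do not test id2a against id2b, for which the ratio of the 2 genes is given below.

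id1 (ENSDARG00000040764), the Id gene most widely used as a BMP readout, had 55.8, 95.6 and 72.3 CPM in tbx20-overexpressing replicates 1, 2 and 3, against 39.1, 87.2 and 66.3 CPM in control replicates 1, 2 and 3. Replicate 2 was high and replicate 1 low in both groups, so the groups overlapped widely although each tbx20-overexpressing library was above the control library of its own number. The log2 fold change was 0.22 (SE 0.32, 95% interval -0.51 to 0.94, edgeR unadjusted p = 0.514). With the replicate block it was 0.25 with a smaller SE of 0.16 (unadjusted p = 0.142, adjusted p = 0.459).

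From its own analysis of this RNA-seq, the paper reports bmp6, id1, id2a and id2b as upregulated with tbx20 overexpression, and cites FPKM values. In the fit here bmp6 and id2a were called, while id1 and id2b were not. The study's other assays included id1 and id2b. By quantitative PCR the paper reports both higher with tbx20 overexpression, after resection and after cryoinjury. Its in situ hybridization showed both raised in the border zone and the endocardium of the wound. Those hearts were cryoinjured and taken at an earlier day after injury than the resected hearts sequenced here. In such hearts the paper also counted a larger share of id2b-positive endocardial cells with tbx20 overexpression. With BMP inhibitors it reports less signal of id1 and id2b in the tbx20-overexpressing hearts. Its quantitative PCR primers for them are printed here in the order listed, 5′ to 3′, because they define what was amplified for the 2 Id genes set against id2a. No primer for id2a was used here, and the letters carry no marked positions.
id1 primer 1: actccgctcacaacactcaa
id1 primer 2: tctgctttaacggcacatga
id2b primer 1: ggacagagccctccaaaaa
id2b primer 2: ggctatgaggtcatctgtgttg

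id3 (ENSDARG00000054823) had 26.6, 40.7 and 27.4 CPM in tbx20-overexpressing replicates 1, 2 and 3, against 22.2, 31.9 and 21.0 CPM in control replicates 1, 2 and 3. As for id1, both replicates 2 were the highest of their group, and within numbers the difference was even: 0.26, 0.35 and 0.39 in log2 CPM for pairs 1, 2 and 3. The log2 fold change was 0.34 (SE 0.26, 95% interval -0.25 to 0.92, edgeR unadjusted p = 0.222), and 0.33 (SE 0.15, unadjusted p = 0.0564) with the replicate block. id3 did not reach the fold threshold in either fit.

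id4 (ENSDARG00000045131) was close to the lower limit of detection, with 6, 9 and 15 counts in tbx20-overexpressing replicates 1, 2 and 3, against 14, 10 and 30 counts in control replicates 1, 2 and 3. Its levels averaged 0.637 ± 0.231 CPM in tbx20-overexpressing and 1.21 ± 0.486 CPM in control hearts (SD, n = 3 each), and the groups overlapped. It was the only 1 of the 8 genes with a fold change well below 0, a log2 value of -0.92 (SE 0.53, 95% interval -2.12 to 0.29, edgeR unadjusted p = 0.118). At these low counts the interval was wide and included 0.

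**Figure D1:**
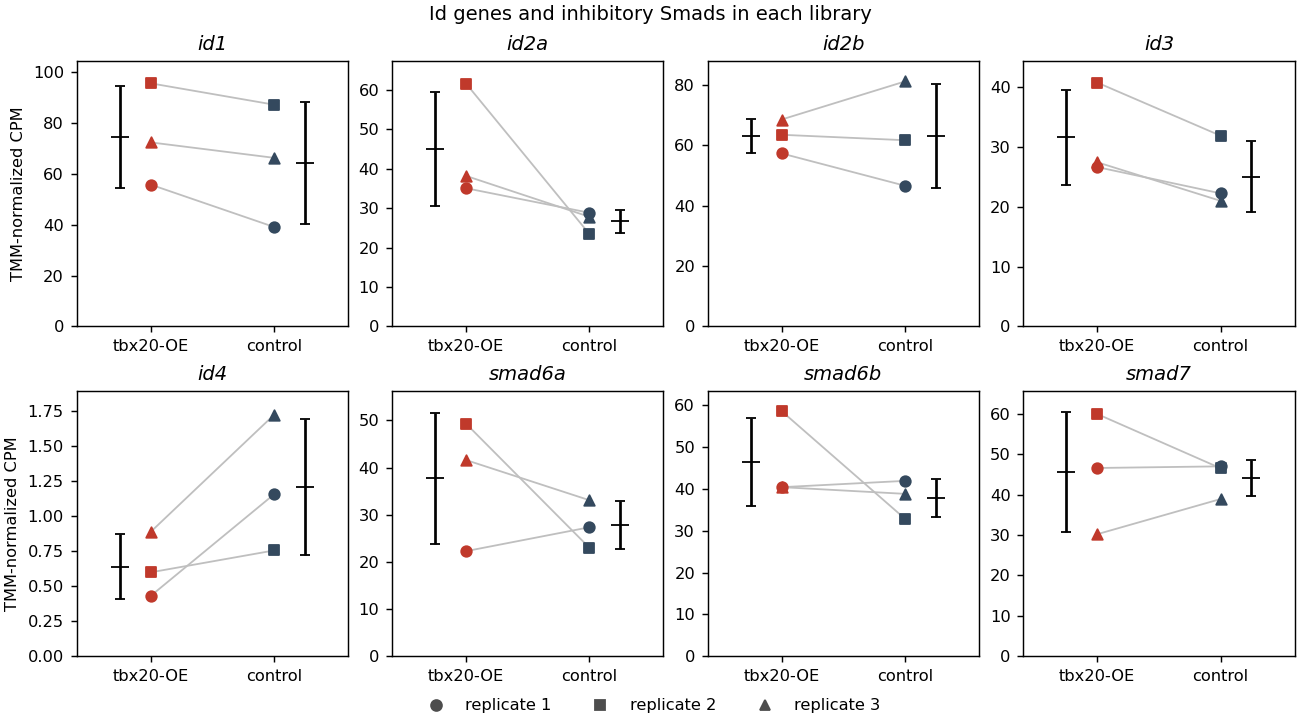
TMM-normalized CPM (vertical axes, each starting at 0) of the 8 genes in each of the 3 tbx20-overexpressing (left, red) and 3 control (right, dark blue) libraries, with marker shapes for the replicate number, grey lines joining like numbers and bars for mean ± SD. id2a is the only panel without overlap, with its highest point at 61.6 CPM in tbx20-overexpressing replicate 2.

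smad6a (ENSDARG00000053209) had 22.3, 49.3 and 41.6 CPM in tbx20-overexpressing replicates 1, 2 and 3, against 27.3, 23.0 and 33.1 CPM in control replicates 1, 2 and 3. The tbx20-overexpressing values spread on both sides of the control values, with replicate 1 below the lowest control and replicates 2 and 3 above the highest. The log2 fold change was 0.44 (SE 0.30, 95% interval -0.25 to 1.13, edgeR unadjusted p = 0.182). Without tbx20-overexpressing replicate 1 it was 0.71 and the gene was called.

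smad6b (ENSDARG00000031763), the other copy of the gene for Smad6, had 40.4, 58.6 and 40.4 CPM in tbx20-overexpressing replicates 1, 2 and 3, against 41.9, 32.8 and 38.8 CPM in control replicates 1, 2 and 3. Replicates 1 and 3 were alike in both groups, and the difference lay in pair 2, at 0.83 in log2 CPM, beside -0.05 and 0.06 in pairs 1 and 3. The log2 fold change was 0.30 (SE 0.22, 95% interval -0.20 to 0.79, edgeR unadjusted p = 0.205), and 0.09 without tbx20-overexpressing replicate 2.

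smad7 (ENSDARG00000016858) had 46.6, 59.99 and 30.2 CPM in tbx20-overexpressing replicates 1, 2 and 3, against 47.0, 46.6 and 38.9 CPM in control replicates 1, 2 and 3. The tbx20-overexpressing libraries held both the highest and the lowest of the 6 values. The log2 fold change was 0.05 (SE 0.26, 95% interval -0.55 to 0.64, edgeR unadjusted p = 0.863). The 3 inhibitory Smads thus gave 0 calls, with a median log2 fold change of 0.30, and the 5 Id genes gave 1 call with a median of 0.22.

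**Figure D2:**
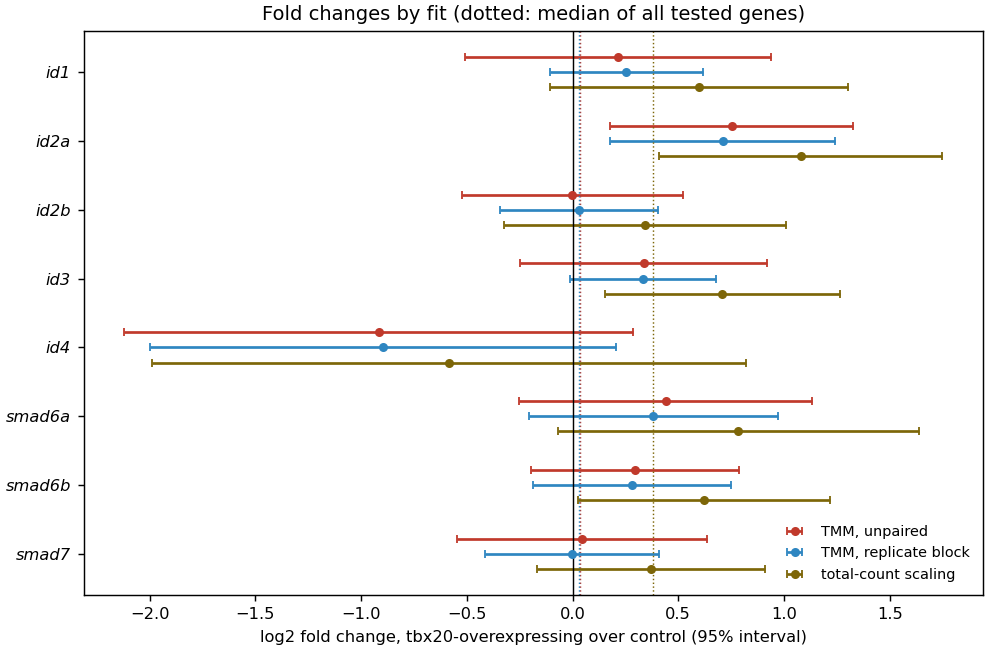
Log2 fold change, tbx20-overexpressing over control, with its 95% interval (horizontal axis) for the 8 genes in the unpaired TMM fit (red), the fit with the replicate block (blue) and the fit scaled by total counts (olive), with dotted lines at the median of all genes in each fit. The interval of id2a lies above 0 in all 3 fits, from 0.18 to 1.33 in the unpaired one, and total-count scaling shifts the 8 genes and the median of all genes (0.38) upward alike.

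The scale mattered for how many of these genes were called. TMM factors were 1.02, 1.08 and 1.31 in tbx20-overexpressing replicates 1, 2 and 3, against 0.920, 0.748 and 1.01 in control replicates 1, 2 and 3, so values scaled by total counts alone, FPKM among them, were shifted upward in tbx20-overexpressing hearts. Under total-count scaling 3 of the 8 genes, id2a, id3 and smad6b, were called higher, beside 11.7% of all genes, and the median log2 fold change of all genes was 0.38. Relative to that median the log2 fold changes were 0.70 for id2a, 0.40 for smad6a, 0.33 for id3, 0.24 for smad6b and 0.22 for id1. The other 3 genes were below it, by -0.04 for id2b, -0.01 for smad7 and -0.97 for id4. In FPKM the groups did not overlap for the same 3 genes, id2a, id3 and smad6b, all higher in tbx20-overexpressing hearts, beside 19.7% of all genes.

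Per length, id1 was the most abundant of the 8 transcripts in both groups, with 84.2 ± 24.3 FPKM in tbx20-overexpressing and 55.6 ± 17.2 FPKM in control hearts (SD, n = 3 each). id2b followed at 49.2 ± 10.8 FPKM in tbx20-overexpressing and 38.9 ± 14.7 FPKM in control hearts, below id1 in 3 of 3 libraries of either group although the ranges overlapped. In tbx20-overexpressing hearts the order then ran id3 (30.5 FPKM), id2a (27.3 FPKM), smad7 (25.3 FPKM), smad6b (24.8 FPKM) and smad6a (16.1 FPKM). In control hearts it ran smad7 (19.6 FPKM), id3 (18.6 FPKM), smad6b (16.1 FPKM), id2a (12.9 FPKM) and smad6a (9.37 FPKM). Neighbours within these 5 overlapped in range in both groups, while in control hearts id3 (17.47 to 20.38 FPKM) and smad7 (17.46 to 21.66 FPKM) lay wholly above id2a (9.45 to 15.1 FPKM). smad6a was below the gene ranked just above it in 3 of 3 libraries of either group. At either end of the 5, id2b stood clear of the next gene and id4, below 1.5 FPKM in every library, stood clear of smad6a.

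The 5 Id genes summed to 139, 223 and 213 FPKM in tbx20-overexpressing replicates 1, 2 and 3, against 97.6, 127 and 157 FPKM in control replicates 1, 2 and 3. These sums overlapped between the groups and carry the shift of the FPKM scale. Shares within the sum do not depend on that scale. id1 made up 43.5 ± 2.70% of it in tbx20-overexpressing and 43.4 ± 7.35% in control hearts (SD, n = 3 each), and id2a 14.2 ± 1.75% in tbx20-overexpressing and 10.6 ± 3.68% in control hearts. The id2a share was 13.8, 16.1 and 12.6% in tbx20-overexpressing replicates 1, 2 and 3, against 14.6, 7.46 and 9.63% in control replicates 1, 2 and 3, so the control of number 1 reached the tbx20-overexpressing range.

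**Figure D3:**
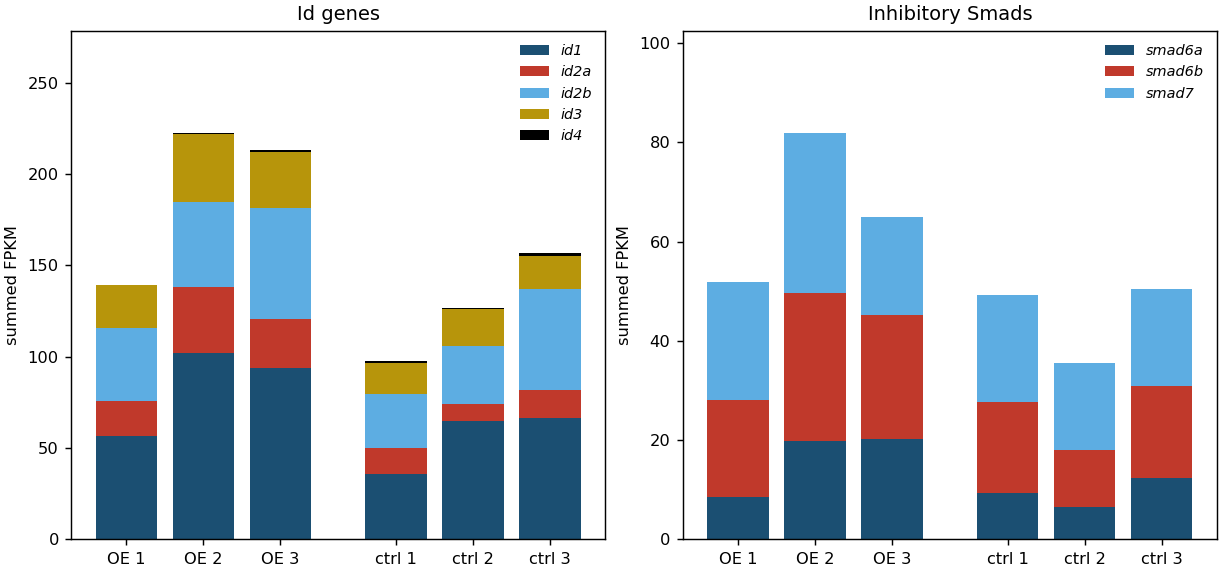
Stacked FPKM (vertical axes, starting at 0) of the 5 Id genes (left panel) and the 3 inhibitory Smads (right panel) in tbx20-overexpressing (OE) and control (ctrl) libraries, each bar 1 library. The Id sums are 139, 223 and 213 FPKM in OE 1, 2 and 3 and 97.6, 127 and 157 FPKM in ctrl 1, 2 and 3, with id1 the largest block in each bar and id4 barely visible.

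The ratio of 2 genes within a library is free of the scaling between libraries and bears directly on whether id2a departs from its relatives. Per length, id2a was 0.483, 0.766 and 0.440 times id2b in tbx20-overexpressing replicates 1, 2 and 3, against 0.488, 0.2999 and 0.270 times in control replicates 1, 2 and 3. Control replicate 1 fell among the tbx20-overexpressing values. The mean log2 ratio was higher by 0.68 in tbx20-overexpressing hearts (exact two-sided permutation p = 0.3, adjusted p = 0.6 over the 3 ratios tested). For id2a over id1 the difference was 0.45 (exact permutation p = 0.4, adjusted p = 0.6) and for smad6a over smad6b 0.10 (exact permutation p = 0.8, adjusted p = 0.8). A departure of id2a from id2b or id1 was thus not shown by the ratios, in a design whose smallest p is 0.1, although id2a was called and they were not.

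Differences within like replicate numbers gave a similar picture. id1, id2a and id3 were higher in the tbx20-overexpressing library of all 3 pairs, 3 of the 8 genes beside 20.9% of all genes, and id4 was lower in all 3 pairs, 1 of the 8 beside 18.8%. For id2a the pair differences were 0.28, 1.39 and 0.46 in log2 CPM for pairs 1, 2 and 3, so pair 2 was the widest. The block changed the call of 0 of the 8 genes, and that of id2a held (log2 fold change 0.71, SE 0.23, unadjusted p = 0.0156, adjusted p = 0.168).

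tbx20-overexpressing replicate 2 had the highest CPM of the 6 libraries for 6 of the 8 genes, beside 16.9% of all genes. This library was singled out after its values were seen. The exceptions were id2b and id4, both highest in control replicate 3. tbx20-overexpressing replicate 2 had the lowest tbx20 of its group (19.1 CPM) and the highest sums of the listed epicardium and fibroblast markers (8715 CPM, beside 4034 to 8715 CPM in tbx20-overexpressing and 3320 to 6494 CPM in control libraries) and of the smooth muscle and pericyte markers (1557 CPM, beside 455 to 1557 CPM in tbx20-overexpressing and 341 to 866 CPM in control libraries). In the first sum the largest means in tbx20-overexpressing hearts were 2989 CPM for col1a1a, 2393 CPM for col1a2 and 1119 CPM for postnb. wt1b was lowest of its group in this library, at 47.2 CPM, beside 63.4 and 66.6 CPM in replicates 1 and 3. tcf21 had 48.1 CPM there, beside 48.9 and 41.0 CPM. In the second sum acta2 alone had 967 CPM. The paper reports its protein in cardiomyocytes of such hearts. Sums of other lists also peaked in this library: thrombocyte markers (311 CPM), BMP receptors (283 CPM), activating Smads (231 CPM), BMP antagonists and ubiquitin ligases (1345 CPM) and other BMP-responsive transcription factors (81.2 CPM). The sums of endothelial, cardiomyocyte, macrophage, neutrophil and erythrocyte markers did not, nor did those of BMP ligands, E proteins and the TGF-beta arm. The part of these genes in the levels of the 8 genes was not tested.

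**Figure D4:**
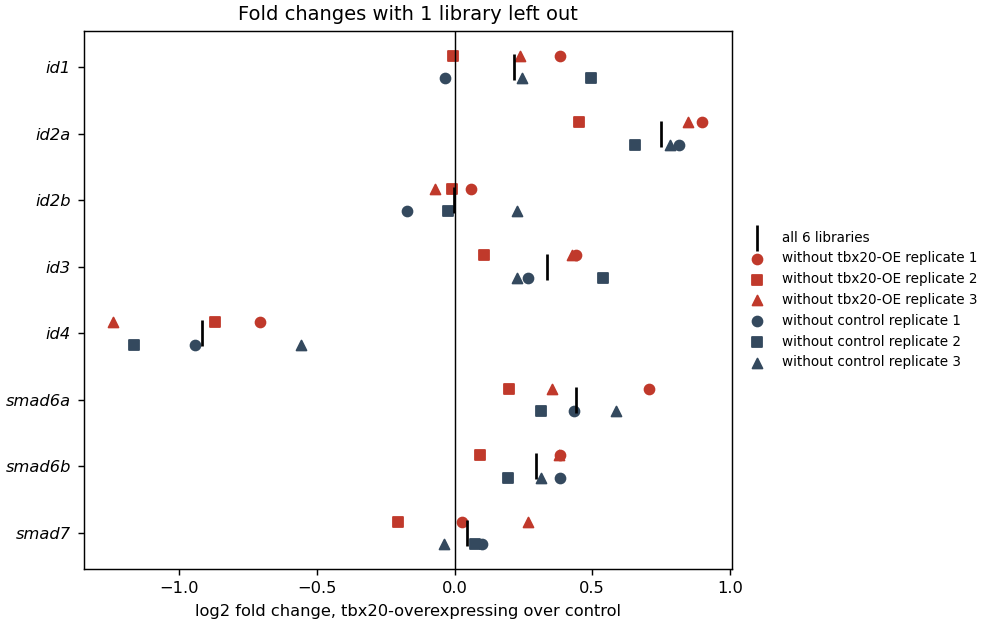
Log2 fold change, tbx20-overexpressing over control (horizontal axis), of each gene with all 6 libraries (black bar) and with 1 library left out (red for a tbx20-overexpressing library, dark blue for a control library, marker shape for its replicate number). id2a stays above 0 throughout, between 0.45 and 0.90, while id1, id2b and smad7 fall on both sides of 0.

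Across the 6 libraries, the highest Pearson r of the 28 pairs among the 8 genes was 0.93, for id2a and smad6b (exact permutation p = 0.0153, adjusted p = 0.428 over the 28 pairs, n = 6). Their Spearman rho was 0.83 (exact permutation p = 0.0583, adjusted p = 0.817). Without the 2 libraries farthest from the median of id2a, r was 0.13. The value of 0.93 thus depended on these 2 libraries, but leaving out extremes also narrows the range of id2a. Over all 6 libraries the other 27 pairs had r between -0.66 and 0.77, 18 of them above 0. Among them id1 and id3 had the same rho of 0.83, with r = 0.77. Without the 2 libraries farthest from the median of id1, their r was 0.55.

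The genes whose log2 CPM followed a member most closely over the 6 libraries differed between the Id genes. For id2a they were fcho2 (r = 0.9904), igf1 (r = 0.986), which encodes a growth factor, and kctd12.1 (r = 0.979). For id1 they were ddah2 (r = 0.992), ubtd2 (r = 0.992) and larp7 (r = 0.991), and for id2b slc35b1 (r = 0.995), si:ch73-127m5.2 (r = 0.991) and nudt9 (r = 0.9899). These r values describe 6 libraries that share group, number and depth. Among the 15686 genes tested, 25 had an r above 0.95 for id2a, 59 for id1 and 33 for id2b. How many would reach it over 6 libraries without any relation was not tested.

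The genes upstream of the 8 mostly did not pass the test. For the lists that follow, the shares over all genes tested were 3.27% called higher and 5.56% called lower. In CPM, 6.45% of all genes were higher without overlap. Of 9 tested BMP ligands, 1 rose and 0 fell, with a median log2 fold change of 0.29. It was bmp6, with 12.6, 13.5 and 10.03 CPM in tbx20-overexpressing replicates 1, 2 and 3, against 9.97, 6.71 and 7.11 CPM in control replicates 1, 2 and 3. The groups did not overlap (log2 fold change 0.60, SE 0.26, edgeR unadjusted p = 0.0448, adjusted p = 0.519), but the call held in only 2 of the 6 fits with a library left out, whose log2 fold changes ran from 0.49 to 0.80. bmp8a had the largest difference among the ligands (0.74, unadjusted p = 0.128). None of 9 tested BMP receptors (median 0.13) or 4 activating Smads (median 0.15) was called in either direction. The largest differences there were 0.52 for the type II receptor gene bmpr2b and -0.30 for smad4a.

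Of 12 tested genes listed as BMP antagonists or ubiquitin ligases, 1 rose and 0 fell, with a median log2 fold change of 0.22. nog3, a Noggin that binds BMP ligands outside the cell, had 67, 18 and 37 counts in tbx20-overexpressing replicates 1, 2 and 3, against 2, 5 and 16 counts in control replicates 1, 2 and 3. Its libraries did not overlap in CPM (1.19 to 4.78 CPM in tbx20-overexpressing and 0.165 to 0.917 CPM in control hearts), the log2 fold change was 2.41 (SE 0.73, edgeR unadjusted p = 0.00998, adjusted p = 0.356), and the call held in 6 of 6 fits with a library left out. It was lowest in tbx20-overexpressing replicate 2 within its group, the library in which 6 of the 8 genes were highest. The sum of the 12 genes went the other way. It was highest in that library, at 1345 CPM, beside 836 to 967 CPM in control libraries. Most of the sum was fstl1b, with a mean of 876 CPM in tbx20-overexpressing hearts. A relation between nog3 and the 8 genes was not tested.

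The E proteins, the partners that Id proteins bind, showed 0 calls among 3 tested genes (median log2 fold change -0.03, the largest 0.24 for tcf3b). Among 5 tested transcription factor genes known to respond to BMP in other settings, 4 had fold changes above 0, with a median log2 fold change of 0.37. The largest of these was 0.62 for tbx2a (edgeR unadjusted p = 0.106), which was called with the replicate block. In the unpaired fit 0 rose and 1 fell. It was hey1, a repressor that is also a Notch target, with 0.357, 0.597 and 0.767 CPM in tbx20-overexpressing replicates 1, 2 and 3, against 1.65, 1.81 and 1.89 CPM in control replicates 1, 2 and 3 (log2 fold change -1.61, SE 0.46, edgeR unadjusted p = 0.0075, adjusted p = 0.334). Its groups did not overlap, the call held in 6 of 6 fits with a library left out, and the counts were low, from 5 to 13 in tbx20-overexpressing and from 20 to 33 in control libraries. Of 13 tested genes of the TGF-beta arm, on which Smad7 also acts, 0 were called (median 0.04), and the largest difference was -0.61 for smad3b (unadjusted p = 0.0997).

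The tissue was whole apical ventricle, in which fewer cells of a type and less RNA per cell cannot be told apart. Id genes and inhibitory Smads are expressed in endothelial and endocardial cells among others. All 10 listed markers of these cells were detected, and they summed to 952 to 1073 CPM in tbx20-overexpressing and 1131 to 1314 CPM in control libraries, without overlap, and 3 of the 10 fell (cdh5, pecam1 and egfl7, by 0.51, 0.50 and 0.67 on the log2 scale) while 0 rose. Of all genes tested, 5.56% were called lower and 3.27% higher. The count of these markers called lower was 0 to 3 with a library left out and 0 under total-count scaling. On that scale the sums also overlapped between the groups. In the TMM fit the rest of the 10 were mixed. Log2 fold changes were -0.42 for kdrl, -0.41 for tek, -0.36 for erg and -0.01 for fli1a. They were 0.002 for tie1, 0.10 for nfatc1 and 0.26 for kdr. In cryoinjured hearts, at an earlier day after injury, the paper reports more nfatc1 signal and a larger flk:GFP-positive part of the wound with tbx20 overexpression. The 7 cardiomyocyte markers summed to 19271 to 35401 CPM in tbx20-overexpressing and 35729 to 62804 CPM in control libraries, and 2 of them fell. Among 8 epicardium and fibroblast markers 2 rose (tcf21 and wt1b), and among 5 smooth muscle and pericyte markers 1 rose (acta2). The others of the latter list, tagln, myh11a, cspg4 and notch3, had log2 fold changes of 0.13, -0.04, -0.23 and 0.22. Among 7 macrophage markers 0 were called, with all 7 fold changes above 0. The neutrophil, erythrocyte and thrombocyte lists also had 0 calls. The 4 tested thrombocyte markers summed to 262 to 311 CPM in tbx20-overexpressing and 128 to 243 CPM in control libraries, without overlap. The part of these differences in the levels of the 8 genes was not tested.

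Set against the sum of the 10 endothelial and endocardial markers, a scale chosen after the data were seen and given with no test, id2a had 35.3, 57.4 and 40.1 CPM per 1000 CPM of these markers in tbx20-overexpressing replicates 1, 2 and 3, against 21.9, 20.7 and 21.5 in control replicates 1, 2 and 3. The control libraries were close together on this scale and the groups did not overlap. smad6b had 40.7, 54.6 and 42.4 CPM per 1000 CPM of markers in tbx20-overexpressing replicates 1, 2 and 3, against 31.9, 29.1 and 29.98 in control replicates 1, 2 and 3, also without overlap. Together these were 2 of the 8 genes, beside 20.7% of all genes that were higher without overlap on the same scale, a share close to theirs. The other 6 genes overlapped between the groups. On the TMM scale the marker sum was itself lower in tbx20-overexpressing libraries, which raises every ratio to it. Which cells expressed the 8 genes was not measured by this RNA-seq. In cryoinjured hearts the paper placed id2b transcripts in flk:GFP-marked endocardial cells, and in a few other cells with tbx20 overexpression.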

How the data were processed

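The deposited table was made by the authors from reads trimmed with Trimmomatic 0.30 and aligned with HISAT2 2.0.1 to zebrafish GRCz10, per the submitters' processing notes and the paper, which also name DESeq. It holds raw counts per gene and FPKM values. The authors deposited the counts without normalization. The counting tool, the use of strand and the treatment of reads that match several genes are not given in the sources used here, so reads could be split between id2a and id2b or smad6a and smad6b. The deposited FPKM values equalled counts divided by exonic length and library total in 190206 of 190206 cases (tolerance 0.0051). FPKM values therefore carry no TMM factor.

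Counts of 15686 genes that passed filterByExpr were tested in R 4.3.3 with edgeR 4.0.16 (TMM, quasi-likelihood F test, two-sided) on tbx20-overexpressing against control libraries, without the replicate number. SE is the log2 fold change divided by the square root of F. Log2 CPM used a prior count of 0.5. Replicates are the authors' biological replicates, each a pool of tissue. Libraries of a group were not duplicates (chi-square per degree of freedom 44.9 to 79.4). After subtraction of group means, libraries of the same number correlated across genes at 0.430, 0.391 and 0.432, so the numbers were taken as pairs from the data. Unlike numbers were at -0.126 or below. The subtraction makes these negative on average once like numbers are positive, so they add no separate evidence. The paired fit is given beside the unpaired one. Genes are not independent replicates.

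Alternatives were DESeq2 1.42.0, limma 3.58.1 on log2(FPKM + 1) and log2(FPKM + 0.1), other scalings and filters, the block by number, and fits that each left out 1 library. The scripts were tested on simulated data. The named genes are the 8 members, tbx20, bmp6, for each pathway list the genes called and the one with the largest fold change, and the 3 genes most like id1, id2a and id2b. The members and lists were chosen with earlier results of these data known. Gene coordinates are not printed, since the annotation at hand is of another build.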

Additional observations from a re-analysis of the deposited data

How the results depend on the processing

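Across 16 alternatives id2a stayed above 0, at 0.71 to 1.08 in log2 fold change when all 6 libraries were used and 0.45 to 0.90 with a library left out, with adjusted p from 0.168 to 0.757. Members called numbered 1 in the reported fit, 3 under total-count scaling and limma on log2(FPKM + 1), 2 under limma on log2(FPKM + 0.1), and 0 to 2 with a library left out. Genes called numbered 1385 (513 higher and 872 lower), 2100 under total-count scaling (1843 and 257), 2213 with the replicate block (949 and 1264), 1843 and 2019 under limma with pseudocounts 1 and 0.1 (1585 and 258, 1764 and 255), and 1097 to 1568 with a library left out. The direction of id2b, close to 0, turned to 0.34 under total-count scaling, 0.37 and 0.38 under limma with pseudocounts 1 and 0.1, 0.027 with upper-quartile factors, 0.030 with the replicate block and 0.0094 with a minimum of 10 counts, and ran from -0.17 to 0.23 with a library left out. smad7 was -0.0029 with the replicate block and -0.20 to 0.27 with a library left out, id1 -0.033 to 0.49, id3 0.11 to 0.54, id4 -1.24 to -0.56, smad6a 0.20 to 0.71 and smad6b 0.09 to 0.38. The log2 ratio of smad6a over smad6b ran from -0.10 to 0.35, that of id2a over id2b from 0.43 to 0.94 and that of id2a over id1 from 0.10 to 0.83. The replicate block changed no call of a member. id4 was not tested with the minimum of 10 counts. At an adjusted p under 0.05 the reported fit called 0 genes, while 84 genes were called with the block, 32 without a filter, 239 by DESeq2 and 9 by limma with pseudocount 0.1. The cause of these differences was not tested. With 3 pools a group, whether a gene was called depended on its spread between libraries as well as its fold change, and id4 had 6 to 30 counts a library.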
